A study of Mus musculus with 8 samples.

Results

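Genes that mark nephron segments other than the collecting duct were examined for histone H3 acetylated at lysine 27 (H3K27ac) in mpkCCD cells, a mouse line of cortical collecting duct cells (clone 11). The set was a fixed list of 32 genes, out of 21883 protein-coding genes on the assembled chromosomes: 4 of podocytes, 17 of the proximal tubule, 4 of the thick ascending limb and 7 of the distal convoluted and connecting tubule. The list rests on the known segment of each gene, and it was drawn up with earlier results of these data known. A gene was called in a peak list when a peak overlapped its RefSeq span, extended by 10 kb on each side, by at least 1 bp. Cells had been grown to confluence on permeable supports and kept without serum and hormones for 24 h. They were then treated for 24 h with 0.1 nM dDAVP, an analogue of vasopressin that is selective for the V2 receptor, or with its vehicle. There were 2 experiments, each with 1 dDAVP and 1 vehicle library, so n = 2 per treatment, and every library comes from this 1 clone. Whether the numbered experiments were independent cultures is not stated, so p-values measure only the spread between these libraries.

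The nephron is built from consecutive segments, each with its own set of transporters. Podocytes form the filter of the glomerulus, the proximal tubule takes back most solutes and filtered protein, the thick limb and distal convoluted tubule reabsorb salt without water, and the collecting duct sets the final water content under vasopressin. H3K27ac marks active promoters and enhancers, and it is usually absent from genes that a cell type keeps silent.

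Immunoprecipitated libraries held between 27923780 and 32705755 kept tags, and the 4 peak lists between 20124 and 39745 peaks. Genes listed for the collecting duct served as a check of the cell label. The list holds Aqp2 and Avpr2 beside genes not confined to this segment, such as Krt8, Krt18, Cdh1 and Pax8. Its count therefore does not by itself tell the collecting duct from other epithelia. Of its 24 genes 20 were called in all 4 lists, among them Aqp2, Avpr2, Gata3, Krt8, Krt18, Cdh1 and Pax8, against 57.4% of all protein-coding genes. The others were Gata2, called in 3 lists, Elf5 and Tfap2b, called in 1 list each, and Aqp4, called in none. Of 6 intercalated cell markers 1 (Atp6v1b1) was called in all 4 lists and 3 in none. Fibroblast markers gave 2 of 7, and endothelial and leukocyte markers 2 of 10. In a bulk library a peak present in few cells and a weaker peak in every cell cannot be told apart.

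Of the 32 markers of other segments, 10 were called in all 4 lists (31.2%), 21 in no list (65.6%) and 1 in a single list. Over all protein-coding genes 57.4% were called in all 4 lists and 32.8% in none, so the marker genes lay below the first share and above the second. Genes called in all 4 lists were Podxl and Synpo of podocytes, Lrp2, Cubn, Slc22a12 and Slc7a7 of the proximal tubule, Egf and Ppp1r1b of the thick limb, and Slc12a3 and Trpm6 of the distal tubule. By segment this was 2 of 4, 4 of 17, 2 of 4 and 2 of 7. Calls differed little between the lists. dDAVP replicate 1 called 11 markers and each of the other lists the same 10, while the share of all genes called was 65.0% and 57.7% in dDAVP replicates 1 and 2, and 65.9% and 63.3% in vehicle replicates 1 and 2. The 10 genes were also the ones called in all 4 lists when the gene span was used with no flank, where 49.5% of all genes were called, and with flanks of 5 kb, where 54.3% were. Flanks of 25 kb gave 15 markers, against 63.8% of all genes. A peak touched the gene itself in each of the 10. With only peaks of fold 5 and over, 4 markers (Ppp1r1b, Slc22a12, Slc7a7 and Trpm6) were called in all 4 lists, against 30.3% of all genes.

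**Figure D1:**
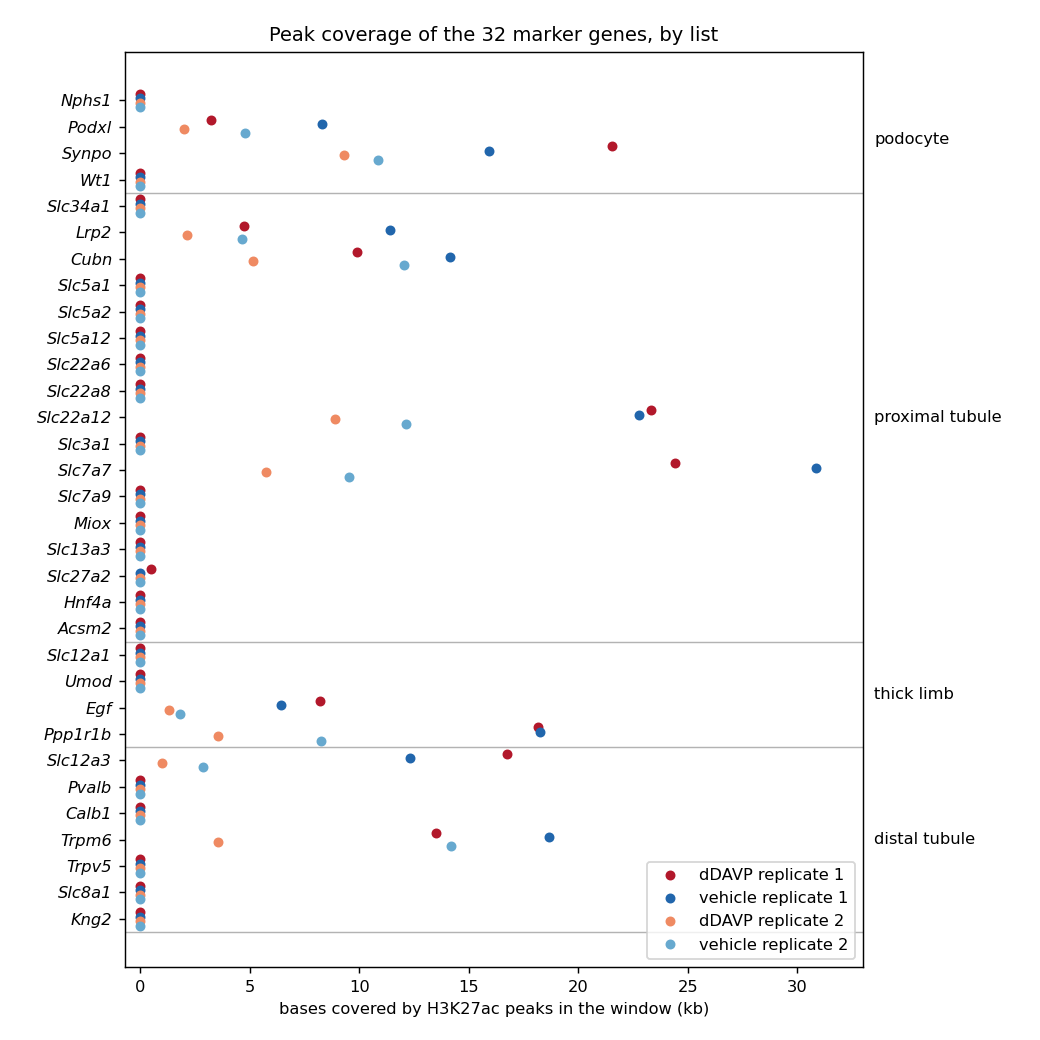
Bases covered by H3K27ac peaks (kb, x axis) in the window of each of the 32 marker genes (y axis, grouped by segment), with 1 point per peak list. Points of 21 genes lie at 0 in every list, and 10 genes have coverage in all 4 lists, between 982 bp (Slc12a3, dDAVP replicate 2) and 30830 bp (Slc7a7, vehicle replicate 1).

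A peak within a gene can lie at its promoter or elsewhere. The RefSeq promoter table (250 bases before to 50 after a gene's start) held entries for 25 of the 32 markers, with 34 starts. Own starts were called in all 4 lists for 2 of these 25 genes, Lrp2 and Egf, against 42.9% of all genes with an entry. A start counted as called when a peak overlapped its promoter window. Podxl, Synpo, Wt1, Slc5a2, Slc5a12, Ppp1r1b and Calb1 had no entry. For these, the bases within 1 kb of either gene end were used, and 2 of 7 (Podxl and Ppp1r1b) were called in all 4 lists, against 41.9% of all genes without an entry. In both genes that call rests on the upper end, and whether this end is the start was not determined. Of the 26 merged regions called in all 4 lists within the windows, 15 lay inside the marker gene, 4 spanned a start of the marker gene in at least 1 list, 4 lay over the start of another gene, and 3 lay in a flank. Of the 15 inside the gene, 8 were in genes with a listed start, and away from it, and 7 were in Podxl and Synpo, which have none.

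The promoter windows below show both called starts beside uncalled ones of the same gene or of other segment markers, in mm10 coordinates and on the gene's strand from RefSeq GRCm38.p6. CpG dinucleotides are in capitals, as CpG-rich promoters are the class most often acetylated in these lists. The Lrp2 start (chr2:69585980-69586279, minus strand) was called in all 4 lists and holds 20 CpG in 300 bases.
Lrp2: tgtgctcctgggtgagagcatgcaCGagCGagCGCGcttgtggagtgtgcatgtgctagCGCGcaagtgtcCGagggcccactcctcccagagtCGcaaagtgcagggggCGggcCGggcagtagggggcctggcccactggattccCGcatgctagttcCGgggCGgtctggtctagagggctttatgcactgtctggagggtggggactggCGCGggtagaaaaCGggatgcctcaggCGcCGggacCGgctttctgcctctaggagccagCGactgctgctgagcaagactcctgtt
Egf has 2 listed starts on the minus strand. The one inside the gene (chr3:129725037-129725336), called in all 4 lists, holds 17 CpG.
Egf inner start: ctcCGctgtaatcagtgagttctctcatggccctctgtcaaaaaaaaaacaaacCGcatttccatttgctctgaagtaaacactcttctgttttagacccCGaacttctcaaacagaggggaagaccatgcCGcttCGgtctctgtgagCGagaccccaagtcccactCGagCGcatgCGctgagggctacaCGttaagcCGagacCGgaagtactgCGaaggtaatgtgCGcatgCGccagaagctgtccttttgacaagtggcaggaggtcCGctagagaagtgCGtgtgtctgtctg
The one at the annotated 5′ end (chr3:129755273-129755572) was called in no list and holds 0 CpG.
Egf outer start: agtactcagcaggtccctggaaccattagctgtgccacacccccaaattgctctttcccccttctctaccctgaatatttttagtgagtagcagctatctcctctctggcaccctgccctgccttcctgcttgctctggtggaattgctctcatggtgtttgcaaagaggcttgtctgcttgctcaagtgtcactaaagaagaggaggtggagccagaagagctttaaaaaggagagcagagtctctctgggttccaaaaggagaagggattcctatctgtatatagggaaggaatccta
Slc12a3 (chr8:94328958-94329257, plus strand) carried peaks in its gene body in all 4 lists and none over its start, which holds 4 CpG.
Slc12a3: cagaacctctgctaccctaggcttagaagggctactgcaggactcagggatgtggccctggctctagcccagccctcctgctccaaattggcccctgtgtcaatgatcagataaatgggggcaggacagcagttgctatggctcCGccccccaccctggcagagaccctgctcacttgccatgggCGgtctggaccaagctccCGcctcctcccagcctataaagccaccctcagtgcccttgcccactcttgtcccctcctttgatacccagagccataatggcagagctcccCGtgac
Umod (chr7:119479213-119479512, minus strand), called in no list, holds 0 CpG.
Umod: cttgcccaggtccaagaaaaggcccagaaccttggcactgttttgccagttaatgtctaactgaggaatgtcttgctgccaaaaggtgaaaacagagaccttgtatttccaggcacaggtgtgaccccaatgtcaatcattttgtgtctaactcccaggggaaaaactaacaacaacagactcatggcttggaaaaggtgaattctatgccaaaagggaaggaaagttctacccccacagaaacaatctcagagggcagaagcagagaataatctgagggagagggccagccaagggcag

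CpG content and calls went together over all 21262 listed starts of protein-coding genes. Starts whose CpG number was under 0.6 times that expected from their C and G content were called in all 4 lists in 14.5% of 11126 cases, and starts at or above 0.6 in 71.3% of 10136. The median number of CpG was 23 at starts called in all 4 lists and 4 at starts called in none. Among the marker starts 29 of 34 fell under 0.6, and 0 of these 29 were called in all 4 lists. The other 5 were the Lrp2 start (ratio 0.65), the inner Egf start (0.83), and starts of Slc13a3 (0.61), Pvalb (0.73) and Slc27a2 (0.79). Only the first and second of these were called, and the other three, which have 22 to 25 CpG, were called in no list. Several starts of 1 gene overlap or lie close together, so the 34 starts are not independent.

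**Figure D2:**
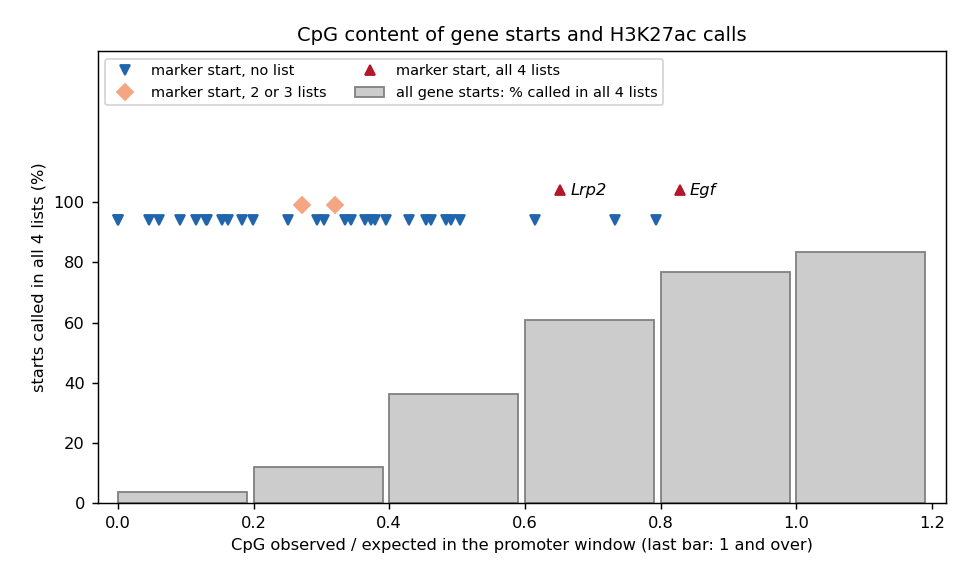
Share of all listed gene starts called in all 4 lists (bars, y axis, %) by the ratio of observed to expected CpG in the 300 base promoter window (x axis); symbols above the bars mark the 34 marker starts called in no list (blue triangles), in 2 or 3 lists (diamonds) and in all 4 (red triangles), and their height carries no value. Bars go from 3.73% at a ratio under 0.2 to 83.4% at 1 and over, and most marker starts sit at the left, with Lrp2 and Egf at 0.65 and 0.83.

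Short motifs were searched on both strands of the same windows. GTTAAT (reverse ATTAAC), the half-site of the HNF1 factors that regulate many proximal tubule genes, was found in 9 of the 34 marker starts, against 6.25% of all starts. These belong to 9 genes, 8 of them among the 15 proximal tubule markers with an entry (Acsm2, Hnf4a, Miox, Slc22a6, Slc22a8, Slc34a1, Slc3a1 and Slc7a7) and the other being Umod. None of these 9 starts was called in any list, as was the case for 30 of all 34 marker starts. TATAAA (reverse TTTATA), the TATA box core, was found in 6 marker starts, against 12.6% of all starts, and GGGCGG (reverse CCGCCC), the GC box, in 10, against 46.2%. TGACGTCA, the palindromic cAMP response element, was found in 0 marker starts and in 2.23% of all starts. A match describes letters only.

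Among podocyte markers, Podxl (podocalyxin, a charged sialomucin of the podocyte surface) and Synpo (synaptopodin, an actin-associated protein of foot processes) were called, while Nphs1 (nephrin of the slit diaphragm) and Wt1 (a transcription factor required in podocytes) were not. Podxl was covered over 3239 and 1986 bp in dDAVP replicates 1 and 2, and over 8310 and 4772 bp in vehicle replicates 1 and 2. Both vehicle lists were above both dDAVP lists. Peaks of Podxl lay at its upper end (chromosome 6, 31562538 to 31564424), covering the end itself in 3 lists and lying 142 bp from it in dDAVP replicate 2, and inside the gene (31548427 to 31551797). The authors' fold of the inner region, the ratio of signal to local background, was 3.98 and 2.82 with dDAVP and 4.81 and 3.88 with vehicle. Synpo held 5 regions called in all 4 lists, all inside the gene, and its covered bases were 21514 and 9324 with dDAVP and 15921 and 10841 with vehicle. Those groups overlap. Neither end of Synpo had a peak within 1 kb, the nearest being 1690 bp away. At Wt1 the nearest peak was between 55036 and 108977 bp from the gene in the 4 lists, and at Nphs1 between 35182 and 63042 bp.

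Proximal tubule markers are described here by what they carry, a grouping chosen after the calls were seen. Lrp2 (megalin) and Cubn (cubilin), the endocytic receptors that together take up filtered protein, were both called, but at different places. At Lrp2 the region over the start (chromosome 2, 69584085 to 69586590) was 1963 and 952 bp wide with dDAVP and 2506 and 2295 bp with vehicle. Its fold was 4.00 and 3.55 with dDAVP and 4.72 and 4.21 with vehicle, higher with vehicle in each experiment. A second region in all 4 lists lay upstream of the start (69589243 to 69592836), 3214 bp away at its nearest. The peak nearest to the Cubn start in any list was 39395 bp away. Its peaks in all 4 lists lay inside the gene, in 3 regions 82891 to 118007 bp from the start, and at the start of the neighbouring gene Rsu1 in the flank. The strongest inner region (chromosome 2, 13370267 to 13373869) had fold 3.71 and 3.66 with dDAVP and 5.12 and 4.41 with vehicle. Inside Cubn lay between 80.2% and 90.9% of the covered bases of its window.

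Of the markers for organic anion and urate transport, Slc22a6 and Slc22a8 (OAT1 and OAT3), which are neighbours 6160 bp apart and have overlapping windows, were called in no list, with the nearest peak at least 50636 bp away. Slc22a12 (the urate transporter URAT1) was called in all 4. All its peaks belonged to a merged region of 32843 bp (chromosome 19, 6519482 to 6552324) that runs into the adjacent gene Nrxn2, a synaptic adhesion protein gene. Covered bases were 23299 and 8875 with dDAVP and 22781 and 12154 with vehicle, so the lists of experiment 1 were high and those of experiment 2 low. Only 14.8% to 31.7% of these bases lay in Slc22a12 itself, and 31.6% to 55.5% lay in Nrxn2. Its promoter window was overlapped in 3 lists, and in dDAVP replicate 2 the nearest peak was 5907 bp from the start.

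Of 3 amino acid transport genes, Slc7a7 (the basolateral y+LAT1 light chain) was called, while Slc7a9 and Slc3a1, the apical light and heavy chains of the cystine transporter, were not. Slc7a7 covered 24428 and 5731 bp with dDAVP and 30830 and 9518 bp with vehicle, again with experiment 1 above experiment 2. The inner region in all 4 lists (chromosome 14, 54409743 to 54417616) had fold 6.66 and 5.84 with dDAVP and 7.32 and 7.75 with vehicle. It lay next to, not over, the 3 starts near the 5′ end, from the closest of which the nearest peak was 63 to 121 bp away in experiment 1 and 543 to 953 bp in experiment 2. A start farther in was covered in both lists of experiment 1 alone. The window's other regions in all 4 lists lay at starts of Oxa1l, Mrpl52 and Mmp14, and 16.5% to 25.2% of the covered bases lay in other genes.

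The remaining proximal markers carried no peak in at least 3 lists. They are Slc34a1 (the sodium-phosphate cotransporter NaPi-IIa), Slc5a1 and Slc5a2 (sodium-glucose cotransporters), Slc5a12 (sodium-lactate cotransport), Slc13a3 (sodium-dicarboxylate cotransport), Miox (the first enzyme of inositol breakdown), Acsm2 (a medium-chain acyl-CoA synthetase), Slc27a2 (a fatty acid transporter and very long-chain acyl-CoA synthetase) and Hnf4a (a transcription factor of proximal tubule identity). Slc27a2 was the 1 gene called in a single list, by a peak of 474 bp in dDAVP replicate 1 with fold 2.33, at percentile 7.12 of that list. That peak lay 9024 bp beyond the gene, just inside the limit. Miox lay just outside it, with the nearest peak between 500 and 996 bp beyond the window in all 4 lists. Slc5a12 was the proximal marker farthest from any peak, at least 294483 bp away in each list, and Hnf4a was between 28421 and 29343 bp away.

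Thick limb markers were also mixed. Egf (the epidermal growth factor precursor) and Ppp1r1b (DARPP-32, a phosphatase inhibitor regulated by cAMP) were called, whereas Umod (uromodulin) and Slc12a1 (the cotransporter NKCC2), the segment's defining genes, were called in no list. Egf had peaks over its inner start (chromosome 3, 129723919 to 129725812), with fold 6.79 and 4.24 with dDAVP and 5.24 and 7.05 with vehicle. The order of the treatments turned between the experiments. A second region (129696817 to 129699927) inside the gene was also in all 4 lists. The peak nearest to the outer start was 29510 bp away. Covered bases of the Egf window were 8211 and 1324 with dDAVP and 6436 and 1817 with vehicle, all inside the gene.

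Ppp1r1b lies next to Stard3, a cholesterol transport gene. Merged over the 4 lists, a region of 15873 bp (chromosome 11, 98347523 to 98363395) spanned the whole of Ppp1r1b. It also spanned the starts of Stard3 and of the long noncoding RNA gene 1700003D09Rik. In the single lists peaks covered 9391 and 1495 bp of the 9391 bp gene with dDAVP, and 8022 and 3893 bp with vehicle. The highest fold in the Ppp1r1b window, 5.58 and 6.50 with dDAVP and 5.79 and 7.36 with vehicle, was in this region in each list. Between 41.8% and 51.7% of the covered bases lay within Ppp1r1b, and 29.1% to 41.8% within other genes. Its lower end was covered in both lists of experiment 1, lay 189 bp from a peak in vehicle replicate 2 and 4839 bp in dDAVP replicate 2. At Umod the nearest peak was between 240514 and 240852 bp away, and at Slc12a1 between 16064 and 16746 bp.

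In the distal tubule, Slc12a3 (the thiazide-sensitive cotransporter NCC) and Trpm6 (an apical magnesium channel) were called, and Pvalb (parvalbumin), Calb1 (calbindin), Trpv5 (an apical calcium channel), Slc8a1 (the sodium-calcium exchanger NCX1) and Kng2 (a kininogen) were called in none. Slc12a3 covered 16739 and 982 bp with dDAVP and 12304 and 2847 bp with vehicle, and dDAVP replicate 2 was the smallest value of any called marker. The region in all 4 lists (chromosome 8, 94353879 to 94360328) lay 24671 bp inside the gene. Its highest fold was 4.59 and 3.72 with dDAVP and 3.92 and 3.05 with vehicle. That fold was higher with dDAVP in each experiment, but in experiment 2 it came from different peaks of the region. Peaks there held 5862 and 982 bp with dDAVP and 5077 and 1791 bp with vehicle, so the order of the treatments turned between the experiments. A region in the flank, within the gene Nup93, came as near as 937 bp to the start and was missing from dDAVP replicate 2.

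Trpm6 held the highest fold among the distal markers. Its region 63649 bp from the listed start (chromosome 19, 18813379 to 18821775) was covered over 7122 and 2075 bp with dDAVP and 8373 and 6603 bp with vehicle. The fold there was 5.61 and 6.44 with dDAVP and 6.17 and 6.62 with vehicle. The listed start of Trpm6 lies inside the gene, 19.553 kb from the annotated 5′ end. No peak covered this listed start, the nearest being 559 to 1375 bp away. Near the annotated 5′ end only vehicle replicate 2 had peaks, 1.079 and 2.44 kb inside the gene. The Trpm6 region nearest the listed start overlaps the long noncoding RNA gene Gm41814, so that peak cannot be assigned to either gene. Slc8a1 spans 365283 bp, the longest of the 32 genes, and held no peak in any list, the nearest being at least 307794 bp away. Trpv5 had its nearest peak 12545 bp away, in vehicle replicate 1, and up to 576584 bp away in the other lists.

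**Figure D3:**
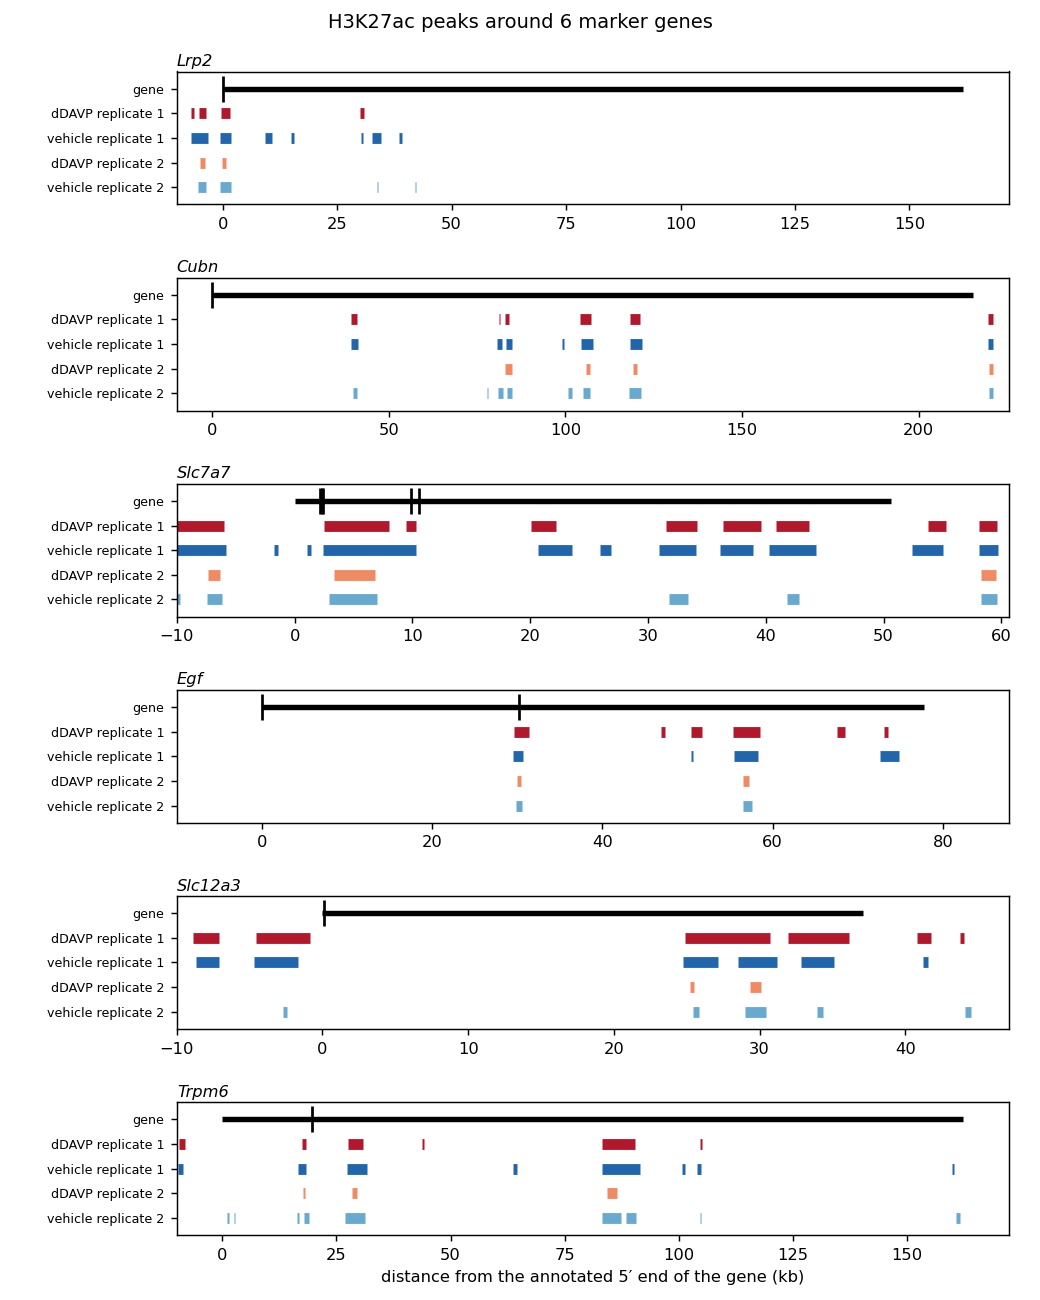
Peaks of the 4 lists (coloured bars) around 6 marker genes against distance from the annotated 5′ end (x axis, kb), with the gene as a black line and each listed start as a vertical tick; each panel ends 10 kb beyond the gene. Peaks cover the tick in all 4 lists at Lrp2 and at the inner start of Egf, and lie away from it at Cubn, Slc12a3 and Trpm6.

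Calls did not rise steadily with gene length. Of the 9 markers of 60 kb and over 5 were called in all 4 lists (64.1% of all genes of that length), of the 14 between 20 and 60 kb 3 were (68.0%), and of the 9 under 20 kb 2 were (49.7%). The median over the 10 called markers of the highest fold percentile in the window was 81.7 and 70.5 in dDAVP replicates 1 and 2 and 79.7 and 75.4 in vehicle replicates 1 and 2. Over all 12555 genes called in all 4 lists it was 88.3, 75.9, 88.9 and 83.8 in the same order. In those lists 2, 5, 1 and 4 of the 10 markers were above the median of all genes. Slc7a7 was highest in both lists of experiment 1, through the peak at Oxa1l, and Podxl was lowest in dDAVP replicate 2, at percentile 14.8.

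The study asked how vasopressin changes acetylation, and the 10 called markers were compared between dDAVP and vehicle by covered bases. All 10 had fewer covered bases with dDAVP in experiment 2, where the median ratio over all called genes was itself 0.714. In experiment 1, where that median was 0.987, 6 of 10 had fewer. A share of all genes is given below for both experiments together only, so neither count can be read as particular to the markers. Those with fewer in both experiments were Podxl, Lrp2, Cubn, Slc7a7, Ppp1r1b and Trpm6, 6 of 10, against 51.4% of all genes called in all 4 lists. None of the 10 had more in both, against 2.84%. Ratios of all bases covered by the dDAVP list to all those covered by the vehicle list were 0.951 and 0.590 in experiments 1 and 2. The median ratio over the markers was 0.893 and 0.449, and over all called genes 0.987 and 0.714. Fewer bases with dDAVP in both experiments held for 5 markers in lists of equal length. In lists trimmed to equal covered bases it held for 2. No share of all genes was taken under these settings, and the cause of these differences was not tested.

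Both dDAVP lists were below both vehicle lists for 3 of the 10, against 5.66% of all genes. These were Podxl, Cubn and Trpm6. Trpm6 covered 13490 and 3556 bp with dDAVP (8523 ± 7024, SD, n = 2) and 18645 and 14208 bp with vehicle (16427 ± 3137). Cubn covered 9909 and 5158 bp with dDAVP (7534 ± 3359) and 14161 and 12053 bp with vehicle (13107 ± 1491). For all 3 the exact permutation test, two-sided, gave p = 0.33, the smallest p that 2 lists against 2 can give, so no difference between treatments can be called for any marker. In lists trimmed to equal covered bases, a setting chosen after seeing the data, the difference of Podxl and of Cubn had the other sign (993 and 1563 bp more with dDAVP). Synpo, Slc22a12, Egf and Slc12a3 lay on different sides of 1 in the experiments, with ratios of 1.02 to 1.36 in experiment 1 and 0.345 to 0.860 in experiment 2.

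**Figure D4:**
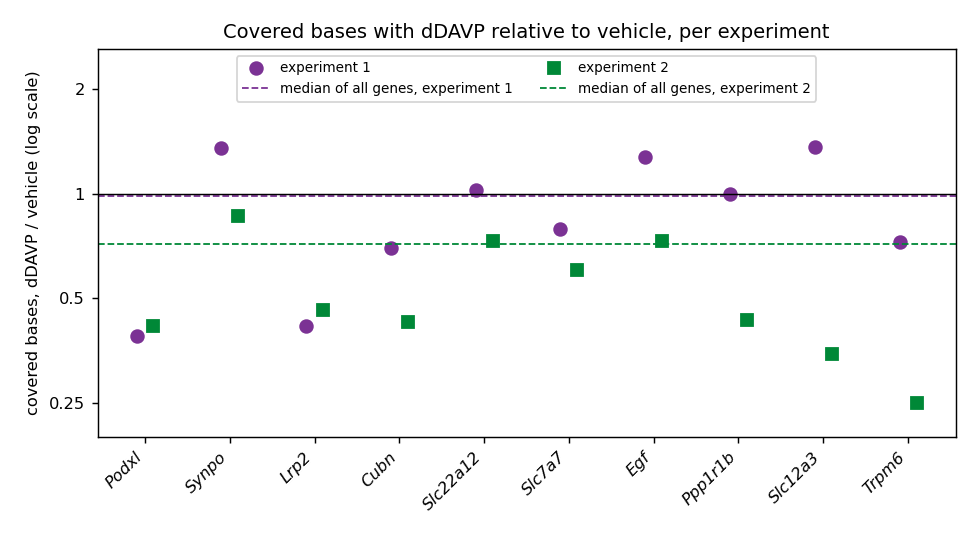
Ratio of covered bases with dDAVP to those with vehicle (y axis, log scale) for the 10 marker genes called in all 4 lists, in experiment 1 (circles) and experiment 2 (squares); dashed lines give the median over all genes called in all 4 lists, 0.987 and 0.714. All squares lie below 1, and circles lie on both sides of it.

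Of the 69 merged regions in the windows, 26 were called in all 4 lists (against 36.2% of all 45705 merged regions). A further 9 were called in experiment 1 alone, 8 in 3 lists and 24 in 1 list. For these further counts no share of all regions is given here, so they cannot be read as particular to the markers. No region was called with dDAVP in both experiments and in neither vehicle list (0.0635% of all regions). The reverse held for 2 regions (2.51% of all regions), 1 inside Podxl and 1 inside Lrp2, the latter 32647 bp from the start.

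Further markers of the same segments, 53 genes outside the 32, gave 20 called in all 4 lists and 22 in none, against 57.4% and 32.8% of all genes. By segment 3 of 7 podocyte, 5 of 23 proximal tubule, 5 of 11 thick limb and 7 of 12 distal genes were called in all 4 lists, the last close to the share of all genes. Unlike for the 32, the number of these genes called differed between the lists. In dDAVP replicates 1 and 2, 30 and 20 of the 53 were called, against 65.0% and 57.7% of all genes. In vehicle replicates 1 and 2, 31 and 29 were, against 65.9% and 63.3%. The shortest list was dDAVP replicate 2, with 20124 peaks. For the proximal tubule these counts were 11 and 5 with dDAVP and 12 and 10 with vehicle, and for the thick limb 9 and 5, and 9 and 9. Podocyte and distal genes did not differ, with 3 and 7 called in every list. Own starts were called in all 4 lists for 3 of the 41 with an entry, against 42.9% of all genes with one. These were Irx2, a homeobox gene, Wnk4, a kinase gene that controls NCC, and Cnnm2, a gene of magnesium handling. The Wnk4 start had fold 7.88 and 6.35 with dDAVP and 8.83 and 7.73 with vehicle. Of genes on the collecting duct list with an entry, 11 of 17 were called at their own start, including less confined genes such as Krt8, Krt18 and Pax8. Folds differed widely among the 11. Gata3 had fold 14.1 and 11.1 at its start with dDAVP and 14.2 and 13.8 with vehicle. Aqp2 had 6.54 and 4.36 with dDAVP and 3.93 and 2.78 with vehicle. Avpr2 had 4.07 and 4.43 with dDAVP and 4.64 and 4.55 with vehicle.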

How the data were processed

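The submitters' processing notes name BWA, SAMtools, MACS2 and the build mm10. Peaks were called by the authors with MACS 2.1.1.20160309 in broad mode, 1 immunoprecipitated library against its input, with q limits of 0.01 and 0.1 and 1 tag kept per position, per the file headers. GEO attaches each list to an input library, although its header names the immunoprecipitated one. Peak length is in bp. The deposited pileup is a signal, mean tag coverage, the deposited fold is its ratio to local background, and 2 deposited columns without a name fit -log10 p and -log10 q by value and order. These are the authors' values per peak.

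Gene spans and starts came from RefSeq GRCm38.p6 tables. All 32 symbols matched, and 25 had a start. Merged regions join overlapping or touching peaks of the 4 lists. Percentiles are ranks of fold within a list. Only peaks on the 19 autosomes, X and Y were used. Tools were Python 3.11.15 with pandas 2.3.3 and SciPy 1.17.1, and the overlap code was tested on simulated peaks. Titles give an experiment number, which pairs the lists, and deviations of covered bases (log2) from the treatment means correlated across genes within an experiment (Pearson r = 0.62, 12555 genes). All 32 members were to be accounted for, with values in every list for those called, and others named where a peak lay at their start or as further markers called at theirs. Members and lists were chosen with earlier results of these data known.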

Additional observations from a re-analysis of the deposited data

How the results depend on the processing

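All 10 markers called in all 4 lists stayed so with the gene span alone, 5 kb flanks, a 50% overlap, lists of equal length and without each list in turn (10 in each case), and 15 were called with 25 kb flanks. Stricter peaks left fewer: 6 at a -log10 q of at least 5, 4 at a fold of at least 5, and 3 in lists of equal covered bases, a setting chosen after seeing the data, where 46.8%, 30.3% and 37.5% of all genes were called. Markers called in no list numbered 13 with 25 kb flanks and 21 to 25 otherwise. Own starts called in all 4 lists numbered 1 (Egf), 0 and 0 under the same 3 settings, 3 with 1 kb either side, and 2 to 3 without each list. For own starts and for markers called in no list, the share of all genes under these settings is not given here. These counts therefore cannot separate a change in the markers from a change in all genes.

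Fewer covered bases with dDAVP in both experiments held for 2 markers (Slc7a7 and Trpm6) in lists of equal covered bases, and for 4 to 6 under the others, with no share of all genes taken under these settings. That count used shares of each list's covered bases as 1 setting, also chosen after seeing the data. The difference, dDAVP minus vehicle, reversed in lists of equal covered bases for Podxl (993 bp), Cubn (1563 bp) and Ppp1r1b (7713 bp). Ppp1r1b also reversed at equal length (86.5 bp), and the limit on -log10 q reversed Ppp1r1b (1216 bp) and Slc12a3 (-1117 bp). Lrp2 kept its sign in lists of equal covered bases, but at -71.5 bp against -4564 bp in the full lists. Trpm6 kept its sign there at -3128.5 bp, against -7904 bp. At equal length Podxl (-2051.5 bp), Lrp2 (-2300 bp), Cubn (-2722.5 bp) and Trpm6 (-4393 bp) kept their sign with smaller differences than in the full lists. Without each list in turn the difference ran from -4057 to 8133 bp for Synpo, -8593 to 5832 bp for Slc22a12, -15751 to 5562 bp for Slc7a7, -2803 to 4085 bp for Egf, -9673 to 4911 bp for Ppp1r1b and -6594 to 9164 bp for Slc12a3. It stayed below 0 for Podxl (-5698 to -2160 bp), Lrp2 (-7936 to -1192 bp), Cubn (-7949 to -3198 bp) and Trpm6 (-12871 to -2937 bp), nearest to 0 without vehicle replicate 1 for Podxl and Lrp2 and without dDAVP replicate 2 for Cubn and Trpm6. The cause was not tested. With the experiment as a replicate block the differences are unchanged (-7904 bp for Trpm6), and exact p is 0.5, the smallest that 2 pairs can give, or 1, so no call changed.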
